A study of Populus trichocarpa with 9 samples.

Results

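In the developing wood (stem differentiating xylem) of black cottonwood, Populus trichocarpa, 215 of 41335 gene models were higher after 7 days of stem bending than in unbent controls, while their mean at 3 days lay near the control level. Only 1 of them carries a name in the sources used here, PtrIRX10-1 (Potri.001G068100), a gene of xylan synthesis. By the centred log2 ratio that made the selection, in which 1 CPM is added to each mean, the 2 largest changes belonged to Potri.012G071200, where 1 library held most of the signal, and to Potri.003G183700. The plain ratio of mean CPM at 7 days to controls was 4.53 for Potri.003G183700 and larger for some members of low level, such as Potri.004G234900 at 7.05. The most abundant member, Potri.006G136700, averaged 3891 ± 1052 CPM in controls, 4337 ± 642 CPM at 3 days and 9941 ± 2431 CPM at 7 days (SD, n = 3 libraries each). CPM is the read count of a gene divided by the total counts of its library and scaled by a constant. Beneath this common profile the members were mostly modest in size, and 26 of the 215 were neighbouring gene models with almost the same counts.

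The members were chosen by the measured values described here, from all 9 libraries and all 3 groups. For each gene the mean CPM of each group was taken, and L3 and L7 were defined as the log2 ratio of the 3-day mean and of the 7-day mean to the control mean, each mean increased by 1 CPM. From each ratio its median over genes with a mean of at least 2 CPM in some group was subtracted, which was -0.05 for L3 and -0.29 for L7. A member had a mean of at least 2 CPM in some group, an L7 of at least 1, an L3 between -0.4 and 0.4, and a CPM in each of the 3 7-day libraries above that of all 6 other libraries. Since these values made the selection, the levels, changes and separations of the members are given as a description. The fold changes and counts of calls printed for them come from the same comparisons, were largely fixed by the selection and are no test of the members.

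The study grew clonal trees of the genotype Nisqually-1 in a greenhouse to an age of 6 months and bent their stems to an angle of 90 degrees. The 3 groups, each of 3 libraries, were unbent upright controls (day 0), stems bent for 3 days and stems bent for 7 days. Xylem was scraped from the upper side of the bent stems, which is the side that forms tension wood, and from the corresponding part of the controls. The study calls its replicates biological, but the labels do not say that each came from another tree, so the spread between libraries may be technical in part. No unbent stems are labelled day 3 or day 7, so bending, elapsed time and day of harvest cannot be told apart. Total counts per library were 20888144 to 29539805, so that 1 count equalled 0.0339 to 0.0479 CPM. The 5 cellulose synthase genes of the secondary wall and the 22 monolignol genes that mark xylem tissue were above 0 in every library, with cellulose synthases summing to 6736 to 8147 CPM in controls, 3652 to 8285 CPM at 3 days and 7814 to 10713 CPM at 7 days. Monolignol genes summed to 15309.9 to 20992 CPM in controls, 8436 to 12626 CPM at 3 days and 12014 to 16874 CPM at 7 days. In scraped tissue, a change in the share of a cell type and a change of RNA per cell cannot be told apart.

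Tension wood is the reaction wood of broadleaved trees, formed on the upper side of a leaning stem. Its fibres are known for an inner gelatinous layer made almost wholly of cellulose, and for less lignin and xylan than ordinary wood. Secondary walls are otherwise built of cellulose, made at the plasma membrane by cellulose synthase complexes, of xylan, made in the Golgi, and of lignin, which is polymerised from monolignols.

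The selection narrowed in steps. A mean of at least 2 CPM in some group was reached by 23743 gene models, of which 1331 had an L7 of at least 1. In 716 of these all 7-day libraries also lay above the other 6. Of the 716, 500 had an L3 above 0.4 and 1, Potri.004G040600, an L3 below -0.4, which left 215 members. A gene raised at 7 days and clear of the other libraries was therefore outside the 3-day limits in 501 cases and inside them in 215. The limit of 300 members was not reached.

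**Figure D1:**
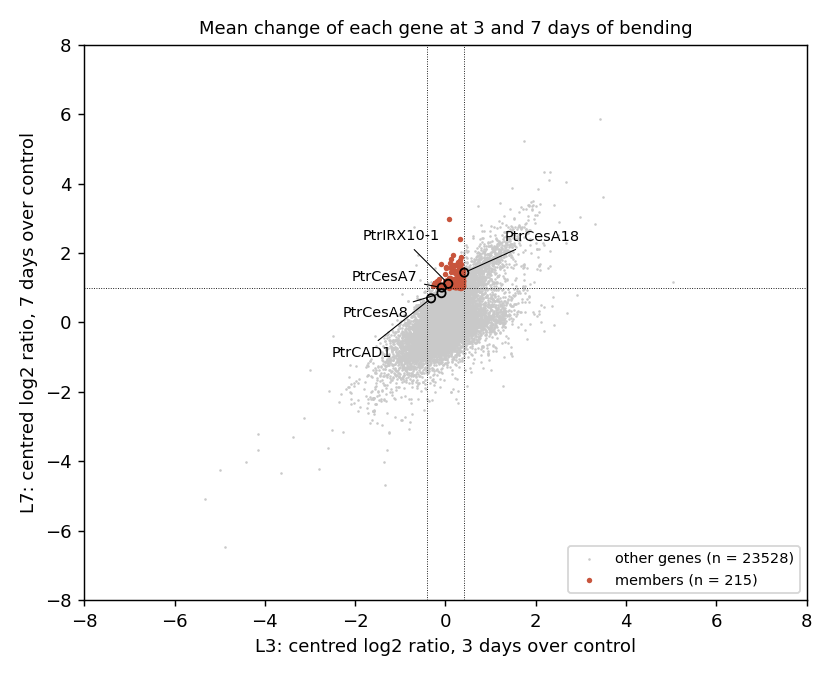
Centred log2 ratio at 3 days over control (x axis, L3) and at 7 days over control (y axis, L7) for 23743 genes with a mean of at least 2 CPM in some group; each point is 1 gene, with 215 members in colour, 23528 other genes in grey and dotted lines at the limits of the selection. Of the 716 genes that met the 7-day criteria, 500 lie to the right of the members, and the named cellulose synthase PtrCesA18 lies just past the limit at an L3 of 0.42.

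Membership was sensitive to single libraries. Without 3-day replicate 2 the same criteria kept 412 genes, 211 of them members, and without 7-day replicate 2 they kept 390, again with 211 members among them. Without 3-day replicate 3 they kept 140 genes, including 124 members. With no median subtracted they kept 81 genes, 57 of them members.

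Most members were raised by little more than the limit required. The median L7 was 1.15 (range 1.00 to 2.97), with 130 members under 1.2, 23 over 1.5 and 2 over 2. In plain ratios of mean CPM, the 7-day level was 1.65 to 39.3 times the control level, with a median of 1.96. This ratio was under 2 for 126 members and at least 2 for 89, since subtracting the median of -0.29 lifted every L7 by 0.29. The ratio of 7 days to 3 days ranged from 1.30 to 34.9, with a median of 1.71.

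At 3 days the members lay on the whole slightly above the control level, by an amount that depended on single libraries. L3 had a median of 0.25 and lay above 0 in 180 members and below 0 in 35, with 134 members above 0.2. The median log2 fold change of the members by edgeR was 0.28 for 3 days over controls, 0.09 without 3-day replicate 2, 0.42 without 3-day replicate 3, 0.41 without control replicate 2 and 0.19 without control replicate 1. All 26 gene models with near-identical counts, described further on, had an L3 below 0, as had 9 of the other 189 members. In 8 members (3.72%) all 3-day libraries lay above all controls, against 5.45% of the 23743 genes at this level. In 14 members (6.51%) all 3-day libraries lay below all controls, against 10.5% of those genes, and all 14 belonged to the near-identical gene models. The limit on L3 held for the members and not for those genes, so lower shares were favoured by the selection.

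Levels spanned a wide range. The mean at 7 days had a median of 41.3 CPM and ran from 2.03 to 9941 CPM. It was over 1000 CPM in 7 members, over 100 CPM in 70 and under 10 CPM in 53. Of the summed mean CPM of all members at 7 days, Potri.006G136700 alone made up 23.1% and the 12 most abundant members 57.9%. Differences in level between genes include differences in transcript length, which CPM does not remove.

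**Figure D2:**
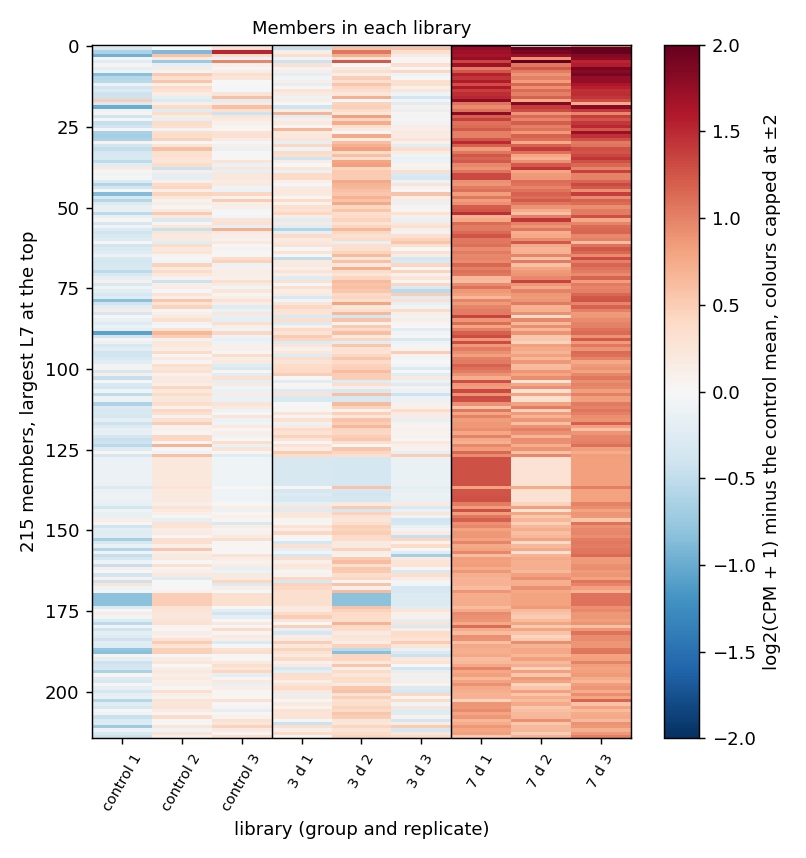
Each row is 1 of the 215 members, ordered by L7 with the largest at the top, and each column 1 library; colour is log2(CPM + 1) minus the mean of the 3 controls, capped at 2 in either direction. The 7-day columns are red by selection, control replicate 1 is the lowest control in 166 of them, 3-day replicate 2 is the highest 3-day library in 144, and the uniform bands are gene models with near-identical counts.

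PtrIRX10-1 was the only member among 32 genes whose names and identifiers are given in the lists used here. Of these 32, 1 is the reference gene PtrActin and the rest are genes of wood formation. IRX10 proteins are known from Arabidopsis as glycosyltransferases that extend the xylan backbone. Its RT-qPCR primer pair is shown because no other sequence of a member is given in the sources used here. Each primer has 17 bases, written 5′ to 3′ in lower case, and the gene lies on chromosome 1 by its identifier.
PtrIRX10-1 forward primer: tctcacacccatgggct
PtrIRX10-1 reverse primer: aacgctggagtaacggg

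PtrIRX10-1 measured 683, 818 and 545 CPM in controls, 685, 853 and 528 CPM after 3 days and 1263, 935 and 1433 CPM after 7 days. The 3-day and control libraries overlapped fully and were almost equal in mean, whereas the lowest 7-day library, replicate 2, stood 1.097 times above the highest other library, 3-day replicate 2. L3 was 0.06 and L7 was 1.11, and the plain ratio of mean CPM was 1.77 for 7 days over controls and 1.76 for 7 days over 3 days. With edgeR the log2 fold change of 7 days over controls was 1.11 (SE 0.32), and over the alternatives it lay between 0.94 and 1.32. PtrIRX10-1 was the fifth most abundant member at 7 days.

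The member with the largest L7, Potri.012G071200, rested on 1 library. It measured 0.176, 0.139 and 0.179 CPM in controls, 0.239, 0.0865 and 0.231 CPM at 3 days and 17.9, 0.330 and 1.12 CPM at 7 days. The level of 7-day replicate 1 carried both the mean above 2 CPM and the L7 of 2.97. Replicate 3 was far lower but still clear of the controls and 3-day libraries, and replicate 2 lay close to them. Potri.012G071200 was the only member that did not pass the filter on low counts used for the quasi-likelihood test below. DESeq2 was run without that filter, and this gene is among the members it called for 7 days against 3 days.

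Potri.003G183700, on chromosome 3, came next with an L7 of 2.40. It measured 11.6, 15.1 and 19.0 CPM in controls, 10.6, 22.9 and 22.7 CPM after 3 days and 52.8, 62.1 and 92.0 CPM after 7 days. Every 7-day library was at least 2.30 times the highest other library, and its edgeR log2 fold change of 7 days over controls was 2.47 (SE 0.34). Its gene model stands 2 places before that of PtrHCT1 (Potri.003G183900), a hydroxycinnamoyl transferase of monolignol synthesis. PtrHCT1 went the other way, with 472, 678 and 574 CPM after 7 days against 1359, 858 and 1413 CPM in controls. No name is given for Potri.003G183700 in the sources used here.

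Potri.001G043100, with the sixth largest L7 at 1.79, likewise lies 2 gene models after PtrHCT6 (Potri.001G042900), another hydroxycinnamoyl transferase of the list; this neighbourhood was noticed after the values were seen. It measured 16.4, 11.3 and 38.6 CPM in controls, 14.3, 46.7 and 19.9 CPM at 3 days and 50.2, 85.9 and 57.7 CPM at 7 days. Libraries varied within each group, and the lowest 7-day library exceeded 3-day replicate 2 by a factor of only 1.07. PtrHCT6 overlapped between groups, with 114, 61.5 and 109 CPM at 7 days and 62.5, 91.1 and 98.5 CPM in controls.

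Potri.005G119700 had the smallest spread at 7 days among the 12 members with the largest L7. It measured 2.29, 8.52 and 7.45 CPM in controls, 7.13, 9.60 and 6.18 CPM at 3 days and 19.1, 20.1 and 22.0 CPM at 7 days. The lowest 7-day library was 1.99 times the highest of the others. Control replicate 1 lay well below the other controls in this gene.

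Potri.004G234900 had the widest gap of all members, its lowest 7-day library standing 3.08 times above the highest other library. The levels were low, at 0.220, 0.554 and 0.404 CPM in controls, 0.335, 0.605 and 0.415 CPM at 3 days and 1.86, 2.26 and 4.18 CPM at 7 days. Potri.011G077600 was similar in shape, with 0.967, 0.693 and 1.03 CPM in controls, 1.34, 0.908 and 1.38 CPM at 3 days and 5.15, 2.92 and 4.59 CPM at 7 days. For both, adding 1 CPM to each mean shrank the change, so that plain ratios of 7.05 and 4.70 over controls became an L7 of 1.72 and 1.75. A gap over 2 was seen in 4 members and a gap over 1.5 in 17, while in 53 members it was under 1.1 (median 1.196).

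Of the other members with a large L7, Potri.016G047800 (L7 of 1.94) had an uneven control group, with 0.923, 0.624 and 7.58 CPM in controls, 2.25, 5.23 and 2.72 CPM at 3 days and 8.73, 10.1 and 16.3 CPM at 7 days. Control replicate 3 came close to the lowest 7-day library. Potri.006G061800 was more even, with 31.8, 32.4 and 37.4 CPM in controls, 37.0, 42.9 and 45.5 CPM at 3 days and 81.1, 69.6 and 122 CPM at 7 days. Potri.016G004800 was 1 of the 9 members outside the near-identical gene models with an L3 below 0. It measured 9.01, 24.7 and 21.3 CPM in controls, 14.8, 18.6 and 15.6 CPM at 3 days and 51.1, 32.1 and 65.6 CPM at 7 days.

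The 12 most abundant members overlapped in 1 gene with the 12 of the largest L7. Potri.006G136700 measured 2920.1, 5009 and 3744 CPM in controls, 3885, 5072 and 4053 CPM at 3 days and 11496, 7139.8 and 11188 CPM at 7 days. Its 3-day and control libraries overlapped, and its 7-day mean was 2.55 times the control mean. Potri.017G029000, which was among the top 12 both by L7 and by level, measured 441, 951 and 639 CPM in controls, 706, 796 and 803 CPM at 3 days and 1943, 1151 and 2185 CPM at 7 days. In both genes replicate 2 was the lowest 7-day library and the highest control.

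Potri.009G085100 and Potri.011G134200 came next after Potri.006G136700 in level. Potri.009G085100 measured 2315, 2507 and 2180.2 CPM in controls, 2356, 3332 and 1893 CPM at 3 days and 4260.4, 3641 and 4223 CPM at 7 days, and its highest 3-day library lay close below its lowest 7-day library (gap 1.09). Potri.011G134200 measured 944, 1265 and 1449 CPM in controls, 1240.3, 1400.1 and 1345 CPM at 3 days and 2399, 1931 and 2299 CPM at 7 days. The remaining 7 of the 12 were Potri.003G173300, Potri.005G003300, Potri.010G137300, Potri.003G074700, Potri.012G034400, Potri.019G047600 and Potri.006G072900. Their means at 7 days ran from 669 to 1102 CPM and their plain ratios to controls from 1.67 to 2.17.

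**Figure D3:**
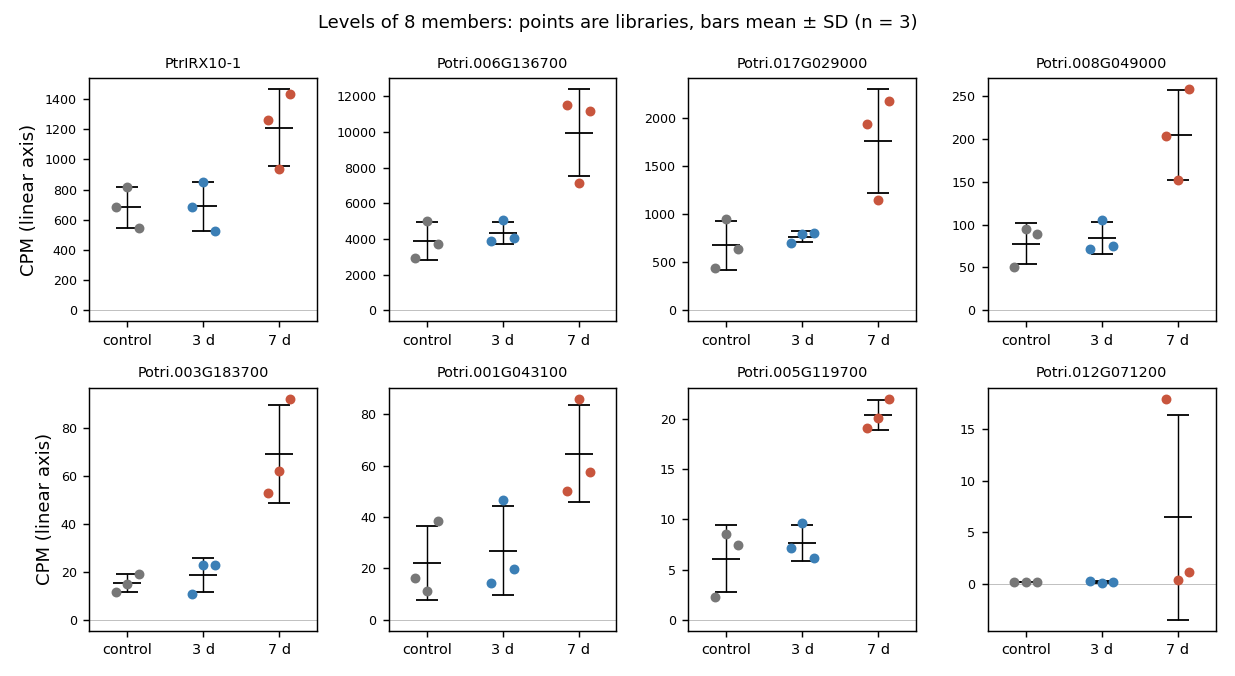
CPM (linear y axes, one per gene) of PtrIRX10-1 and 7 other members in controls, after 3 days and after 7 days; points are libraries in the order of their replicate numbers and bars are the mean ± SD (n = 3). In each panel the 7-day points lie above the rest, as the selection requires, and for Potri.012G071200 replicate 1, at 17.9 CPM, stands far above replicates 2 and 3, at 0.330 and 1.12 CPM.

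Replicates agreed more closely at 7 days than in the other groups, a property on which the selection bears because every 7-day library had to clear the others. The coefficient of variation had a median of 14.4% at 7 days, 20.2% at 3 days and 20.1% in controls, and in 150 members it was smaller at 7 days than in controls. It was under 10% at 7 days in 71 members and over 30% in 36. The tightest were Potri.008G088800 with 109, 109 and 108 CPM at 7 days (0.63%), Potri.011G153300 with 181, 187 and 186 CPM (1.67%) and Potri.012G034400 with 685, 700.4 and 715 CPM (2.15%). The loosest, after Potri.012G071200, were Potri.011G053400 with 2.03, 4.15 and 1.42 CPM (56.5%) and Potri.T124000 with 3.93, 1.41 and 2.54 CPM (48.0%).

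Members were not spread evenly over the gene models, and 2 blocks of neighbours had almost the same counts in every library. Near-identical was taken, after seeing the data, to mean counts within 20% or within 10 counts of each other in all 9 libraries, among members at most 25 gene models apart. The larger block, on chromosome 11, held 20 members between Potri.011G016600 and Potri.011G018700. Their counts were 80 to 93, 124 to 146 and 70 to 83 in the 3 controls, 57 to 73, 62 to 78 and 74 to 83 at 3 days, and 320 to 346, 106 to 126 and 199 to 239 at 7 days. The spread between neighbours was thus far smaller than the spread between the 7-day libraries. As an example, Potri.011G017400 measured 3.52, 4.68 and 3.59 CPM in controls, 2.92, 2.85 and 3.46 CPM at 3 days and 10.9, 4.99 and 7.61 CPM at 7 days. Replicate 2 at 7 days was close to replicate 2 of the controls.

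Only 2 gene models inside this stretch were not members, Potri.011G017200 and Potri.011G018400, and both had higher counts in the controls. The block covers 3 runs of adjacent members, of 11, 6 and 3 gene models. Whether 1 transcribed stretch was counted at many gene models, or many close copies shared reads, was not tested, as the sources used here do not say how multiply mapping reads were counted.

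**Figure D4:**
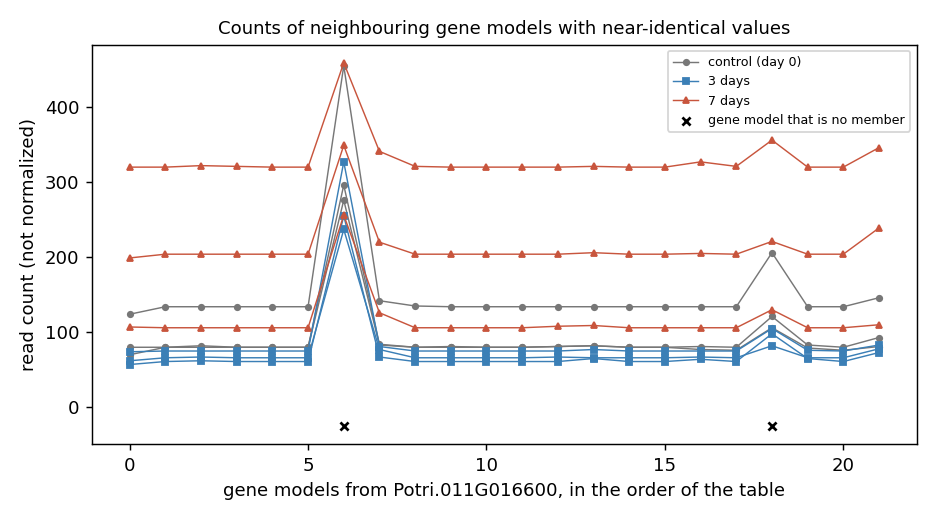
Read counts (y axis, not normalized) of 22 consecutive gene models of chromosome 11 in the order of the table (x axis), with 1 line per library coloured by group; crosses mark the 2 gene models that are no members. Lines are flat across the 20 members, with 7-day replicate 1 at 320 to 346 counts and 7-day replicate 2 at 106 to 126 counts.

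The smaller block, on chromosome 3, held 6 members between Potri.003G125500 and Potri.003G126400, among other gene models with other counts. Their counts were 0 to 3, 43 to 49 and 27 to 31 in controls, 25 to 34, 0 to 8 and 10 to 17 at 3 days, and 58 to 65, 44 to 49 and 74 to 81 at 7 days. Potri.003G126200, for example, had 0 counts in control replicate 1 and in 3-day replicate 2, which allows up to 3 counts, or 0.132 and 0.130 CPM, by counting error alone. Its other libraries lay at 1.49 and 1.21 CPM in controls, 1.197 and 0.461 CPM at 3 days and 1.96, 2.07 and 2.76 CPM at 7 days. In all, 11 members had exactly the counts of another member. With the gene models of each block counted once, 191 members remained, with a median L7 of 1.17 and a median L3 of 0.27. Members further apart or on different chromosomes were not compared, so the 191 may still hold near-identical counts. Potri.T060800 and Potri.017G143300, for example, summed to 2867 and 2856 counts in controls, 3067 and 3010 at 3 days and 6531 and 6510 at 7 days. Potri.004G126800 and Potri.010G015900 were also close, with 2136 and 2106, 2336 and 2281, and 4687 and 4528 counts.

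Outside the blocks, 6 runs of adjacent members held 13 gene models. The longest was Potri.011G090200, Potri.011G090300 and Potri.011G090400 on chromosome 11. Potri.011G090200 was much the most abundant, with 135, 199.8 and 160.3 CPM in controls, 195, 209 and 190.1 CPM at 3 days and 429, 356 and 451 CPM at 7 days. Potri.011G090300 measured 4.35, 10.4 and 8.30 CPM in controls, 9.0, 8.17 and 8.99 CPM at 3 days and 18.6, 16.7 and 19.3 CPM at 7 days. Potri.011G090400 measured 2.33, 3.88 and 4.31 CPM in controls, 3.97, 4.15 and 3.18 CPM at 3 days and 11.3, 7.91 and 11.2 CPM at 7 days.

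The next gene model but 1, Potri.011G090600, was also a member and had the fifth largest L7 (1.82). It measured 7.21, 8.49 and 6.50 CPM in controls, 6.89, 9.12 and 7.51 CPM at 3 days and 27.1, 14.6 and 28.0 CPM at 7 days. Between them, Potri.011G090500 was also high at 7 days (8.73, 7.96 and 11.01 CPM against 1.85, 3.05 and 2.11 CPM in controls) but had already reached 5.17, 3.42 and 4.15 CPM at 3 days, an L3 of 0.70, and so was no member. The gene models on either side, Potri.011G090100 and Potri.011G090700, were lower at 7 days than in controls in mean CPM.

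Potri.008G048900 and Potri.008G049000 formed another such pair, noted here for their levels after the values were seen. Potri.008G049000, also among the 12 largest L7, measured 50.3, 94.3 and 89.0 CPM in controls, 72.1, 105 and 74.8 CPM at 3 days and 203, 152 and 257 CPM at 7 days. Its neighbour measured 109, 156 and 141 CPM in controls, 132, 168 and 135 CPM at 3 days and 260.3, 216 and 318 CPM at 7 days. Both had their lowest control in replicate 1, their highest 3-day library in replicate 2 and their highest 7-day library in replicate 3. Each of these ranks was common among the members, with near-identical gene models counted singly. Replicate 1 was the lowest control for 166 members. Replicate 2 was the highest 3-day library for 144, and replicate 3 the highest 7-day library for 110. The order is therefore not read as particular to this pair or as bearing on shared reads. Strand use in counting is not given in the sources used here, so overlapping or opposed neighbours could share reads.

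By chromosome, 35 members (16.3%) lay on chromosome 11, which held 3.69% of the 23743 genes at this level. With near-identical gene models counted once, 16 members of 191 (8.38%) remained there. The genes at this level were not counted in this way, so the shares are not fully alike. Chromosome 1 held 25 members (11.6%, against 11.5% of the genes at this level) and chromosome 6 held 18 (8.37% against 7.33%), both close to their share. Of the 191 counted once, they held 13.1% and 9.42%. Chromosome 3 held 23 (10.7% against 5.82%), or 18 counted once (9.42%). The other chromosomes held 4 to 13 members each, and 8 members lay on scaffolds outside the chromosomes.

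As a group, the 215 members took 1.77%, 2.52% and 2.15% of the counts in controls, 2.32%, 2.90% and 2.10% at 3 days and 4.60%, 3.65% and 4.66% at 7 days. Their summed mean CPM was 2.01 times the control sum at 7 days and 1.14 times at 3 days. Libraries of 1 group differed in a shared way. Control replicate 1 was the lowest control for 166 members and control replicate 2 the highest for 140, while 3-day replicate 2 was the highest 3-day library for 144. The median deviation of the members from their group mean was -0.26 on the log2 scale in control replicate 1 and 0.19 in 3-day replicate 2, against -0.06 and -0.08 over all genes at this level. Across the 6 libraries not taken at 7 days, 3-day replicate 2 was the highest for 121 members, so that it most often set the value which the 7-day libraries had to exceed. At 7 days, replicate 2 was the lowest library for 133 members and replicate 3 the highest for 110. These ranks count near-identical gene models singly, and ranks over all genes are not given here.

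**Figure D5:**
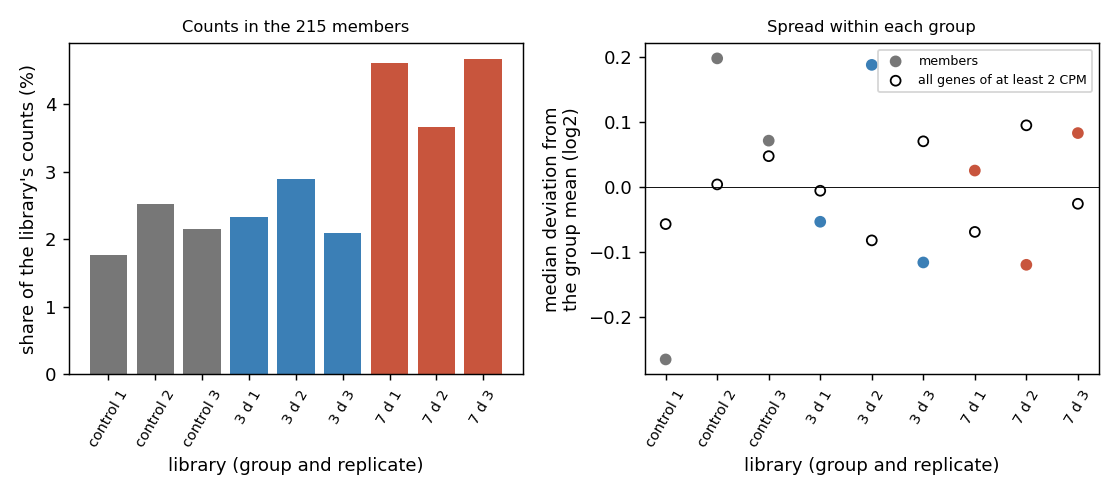
Left, share of each library's counts that fell in the 215 members (bars, %); right, median over genes of the log2 deviation from the group mean, for the members (filled) and for all 23743 genes at this level (open). The members took 3.65% to 4.66% of counts at 7 days and at most 2.90% elsewhere, with control replicate 1 low and 3-day replicate 2 high within their groups.

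The quasi-likelihood fit covered 27795 genes that passed the filter on low counts, 214 members among them. For 7 days against controls the exact test covered 27240 genes, and DESeq2, run without this filter, gave an adjusted p for 29265. Each again covered 214 members. Nothing is read from the members' counts, since the selection used the same libraries and comparisons. For 7 days against controls, edgeR's quasi-likelihood test called 190 members higher and 0 lower at an adjusted p under 0.05, while it called 6.07% of all tested genes higher. Its exact test called 206 members, with 7.77% of all genes, and DESeq2 called 208, with 9.48%. The median log2 fold change of the members was 1.26, and that of all genes was -0.06. The quasi-likelihood count depended on single libraries: leaving out 7-day replicate 3 gave 24, control replicate 1 gave 43, 7-day replicate 1 gave 53 and control replicate 3 gave 67. Fewer libraries enter these fits, and the shares of all genes called in them are not given here. The drop is therefore not read as particular to the members. Of the 24 members not called by the quasi-likelihood test, 6 were in the near-identical blocks. Of the 12 most abundant members 4 were not called, PtrIRX10-1 among them.

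For 7 days against 3 days the tools disagreed. The quasi-likelihood test called 0 members and 0 of all genes higher at an adjusted p under 0.05, with 206 members and 3114 of all 27795 genes higher at an unadjusted p under 0.05. The members had been selected for this gap. The edgeR exact test called 131 members, with 1.79% of all genes, and DESeq2 called 181, with 4.32%. Both tools called 125 members. The share of all genes called by both is not given here, so this overlap is not read as a result about the members. The median log2 fold change of the members was 0.99, against -0.02 over all genes.

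For 3 days against controls, 0 members were called by the quasi-likelihood test (0 of all genes higher), by edgeR's exact test (1% of all genes higher) and by DESeq2 (1.79% of all genes higher). At an unadjusted p under 0.05 the counts were 5, 0 and 7 members higher. Over all tested genes, 1726 of 27795, 1456 of 27259 and 2235 of 29966 were higher at this unadjusted threshold with the same tools. A small change here was required by the limit on L3, so the absence of calls adds nothing about the members.

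None of the other named genes of wood formation met the selection. Of 32 named genes, 3 had an L7 of at least 1, namely PtrIRX10-1 and the cellulose synthases PtrCesA18 and PtrCesA7. The 32 include the reference gene PtrActin. PtrCesA18 (Potri.004G059600) measured 1845, 2319.6 and 2274 CPM in controls, 2704, 3698 and 1907 CPM at 3 days and 5063, 4145 and 5064 CPM at 7 days, and missed by its L3 of 0.42. PtrCesA7 (Potri.006G181900) had an L7 of 1.01 and an L3 of -0.08, but its lowest 7-day library, at 1625 CPM, lay just below 3-day replicate 2, at 1648 CPM. PtrCesA8, another subunit, had an L7 of 0.84 with overlapping libraries. Reads of close copies among the cellulose synthases may have been split or counted at each.

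Tested across all genes with edgeR's quasi-likelihood test, 1 of the 5 cellulose synthases was called higher at 7 days than in controls, PtrCesA18 (log2 fold change 1.44, SE 0.36, adjusted p = 0.0405), and 0 were called lower. Of the 22 monolignol genes 0 were called higher and 2 lower, the phenylalanine ammonia-lyases PtrPAL1 and PtrPAL3. PtrCslA2, a mannan synthase and the only other hemicellulose gene of the list, was called lower, with 58.3, 39.5 and 16.0 CPM at 7 days against 240.0, 184 and 402 CPM in unbent stems (log2 fold change of -2.57 with SE 0.50, adjusted p = 0.0171). PtrIRX10-1 and PtrCslA2, both genes of hemicellulose synthesis, thus had opposite signs at 7 days. PtrIRX10-1 was called higher by DESeq2 and edgeR's exact test but not by the quasi-likelihood test, and as a selected gene its calls are a description. Neither transcription factor of the list, PtrHSFB3-1 and PtrMYB092, was a member, and both were called lower. Over the 32 genes the quasi-likelihood test thus called 1 higher and 5 lower, against 6 and 7 by the exact test and 5 and 7 by DESeq2. Over all tested genes the quasi-likelihood test called 1687 higher and 745 lower of 27795. The exact test called 2117 and 1337 of 27240, and DESeq2 2775 and 1586 of 29265. All 6 quasi-likelihood calls were lost without 7-day replicate 3, and that of PtrCesA18 under 7 of 15 alternatives (adjusted p from 3.45e-07 to 0.143).

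For 7 against 3 days the quasi-likelihood test called 0 of these 32 genes in either direction, with 17 higher and 0 lower at an unadjusted p under 0.05, where 3114 of all 27795 genes were higher. The exact test of edgeR called 3 of the 32 higher and DESeq2 called 10, beside 1.79% and 4.32% of all genes. For 3 days against controls it again called 0, with 0 higher and 13 lower at an unadjusted p under 0.05, where 11.7% of all genes passed in either direction. The exact test called 5 lower and DESeq2 7, beside 181 and 345 of all genes called lower.

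Beside the members stand the 501 genes that met the same 7-day criteria with a 3-day change outside the limits. The L7 of the members was smaller, with a median of 1.15 against 1.80 for those genes. The further step between 3 and 7 days, L7 minus L3, was of a like size, with a median of 0.98 for the members and 0.90 for the other 501 genes. The coefficient of variation in controls had a median of 20.1% in the members and 33.0% in the others. These groups were cut from 1 distribution by the limit on L3, so the differences are descriptive.

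Genes on either side of each limit were close in value. For the limit of 1 on L7, Potri.001G324700 and Potri.006G104600 were just inside (1.004 and 1.005) and Potri.011G004400 and Potri.007G102400 just outside (both 0.996). For the upper limit on L3, Potri.005G105900 and Potri.006G043000 were just inside (both 0.398) and Potri.019G024100 and Potri.008G116200 just outside (both 0.405). The last of these is the direct neighbour of the member Potri.008G116300, whose L3 was 0.387. Near the lower limit the lowest members were Potri.003G126400 (-0.266) and Potri.003G102200 (-0.264), far inside -0.4, and the only gene outside was Potri.004G040600 (-0.617).

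For the separation of libraries, Potri.011G035200 and Potri.008G116300 just passed, with a lowest 7-day library 1.01 and 1.02 times the highest other library. Potri.005G182800 and Potri.012G023400 just failed, at 0.993 and 0.989. For the level of 2 CPM, Potri.008G109800 and Potri.019G085300 were just inside with 7-day means of 2.03 and 2.08 CPM. Potri.011G150000 and Potri.T127000 were just outside with 1.96 and 1.91 CPM.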

How the data were processed

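The authors deposited raw read counts for 41335 gene models (Potri identifiers, version 3), whole numbers with no normalization, from 9 libraries of stem differentiating xylem. The submitters' processing notes name TopHat, a spliced aligner, with no version; for the alignment build, counting tool, strand use and handling of multiply mapping reads, the entry is: not given in the sources used here. Groups and replicate numbers came from sample titles, and 0 columns were left unmatched. Between replicates of a group, chi-square per gene was 22.0 to 92.4, well past counting noise, so no library was treated as deposited more than once.

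Members were selected on CPM from column totals as described above. Tests used edgeR 4.0.16 in R 4.3.3 (filterByExpr, TMM factors, quasi-likelihood fit of the 3 groups to all 9 libraries, two-sided, Benjamini-Hochberg adjustment over 27795 genes, called under 0.05); standard errors are the log2 fold change over the square root of F. DESeq2 1.42.0 and edgeR's exact test were alternatives. Further alternatives were other scaling, pseudocounts, minimum levels and filters, no median subtraction, a fit of the compared groups only, the replicate block, thinned counts and each library left out; counting near-identical gene models once was added after seeing the data. The test procedure was also run on simulated counts, with no result given here and nothing read from it. Tables and figures were made with Python 3.11.15, pandas 2.3.3 and matplotlib 3.10.9.

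The members and lists were chosen with earlier results of these data known. Named genes are members in the study's wood-gene lists, the 12 with the largest L7, the 12 with the highest 7-day mean, those on either side of each limit, up to 5 runs of adjacent members, and the 3 smallest and 3 largest coefficients of variation at 7 days; others are said to be chosen after seeing values. Lists by gene description, and markers of cell types other than xylem, could not be built: 0 identifiers were found in the RefSeq gene table (P.trichocarpa_v4.1), and that table has no descriptions. Promoter, protein and genome sequences were not used here, nor were gene lengths and coordinates. Same-numbered libraries were checked for pairing, with the result given in the closing part on processing.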

Additional observations from a re-analysis of the deposited data

How the results depend on the processing

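The selection kept 215 genes, and between 182 and 242 under TMM or RLE scaling, a pseudocount of 0.5 or 2 CPM, a minimum mean of 1 or 5 CPM, thinned counts and near-identical gene models counted once. Members among them numbered 156 (pseudocount 2) to 214 (minimum mean 1). With no median subtracted it kept 81 genes, since L7 then loses its shift of 0.29. Leaving out 1 library gave 140 genes (without 3-day replicate 3) to 412 (without 3-day replicate 2), with 124 to 211 members among them, and the cause was not tested. Members called higher at 7 days than in controls numbered 190, and 24 (without 7-day replicate 3) to 190 (without 3-day replicate 2) with 1 library left out, where fewer libraries enter the test. For 7 against 3 days, edgeR's quasi-likelihood test called 0 members under the main settings and with each library left out, while DESeq2 called 181 and edgeR's exact test 131; the cause was not tested. For 3 days against controls 0 members were called under all 15 alternatives, but the limit on L3 required a small change there.

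With the replicate block, 139 members were called for 7 days against controls and 0 for both other comparisons. Shares of all genes called with this block or with 1 library left out are not given here. Deviations of same-numbered libraries correlated at -0.41 to 0.45 over 9 pairs, 5 of them over 0.1, and 3 of 9 libraries had their closest partner under the same number, so the numbers were not taken to pair the samples. Of 22 named members refitted under 15 alternatives, 4 were called in every alternative for 7 days against controls. Their positive sign was fixed by the selection, which used this same comparison. The share of all genes called in every alternative is not given here, so nothing is read from this count. The median log2 fold change of the members for 3 days over controls was 0.28, and 0.09 (without 3-day replicate 2) to 0.42 (without 3-day replicate 3) with 1 library left out. Depth limits the members under 5 CPM at 7 days (25 of 215), where 1 count is up to 0.0479 CPM and adding 1 CPM shrinks the ratio.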
